A study of Capra hircus with 20 samples.

Results

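The small leucine-rich proteoglycans and the large proteoglycan versican were examined in goat intramuscular and subcutaneous preadipocytes and in the adipocytes induced from them. The 8 genes were taken by their symbols in the mRNA table, with the FPKM (fragments scaled to transcript length and to library size) of their transcripts summed per gene. They were decorin (DCN), biglycan (BGN), asporin (ASPN), lumican (LUM), fibromodulin (FMOD), PRELP, osteoglycin (OGN) and versican (VCAN), which are 8 of 20587 genes and 14 of 43766 transcripts. Cells came from the longissimus dorsi muscle or the subcutaneous fat of male Jianzhou Daer goats aged 7 days and were grown in culture after collagenase digestion. Intramuscular preadipocytes (IMPA) and subcutaneous preadipocytes (SPA) were collected before induction, and intramuscular adipocytes (IMA) and subcutaneous adipocytes (SA) after 3 days in medium with oleic acid. No group was kept for 3 days without oleic acid, so induction and time in culture cannot be told apart. A change on induction is here the difference between these stages. Each group had 5 libraries of strand-marked total RNA, 20 in all. Libraries are numbered within a group, but which goat a number stands for is not given, and the p values measure the spread between these libraries. Only FPKM values were used here, so fragment counts cannot be stated.

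Small leucine-rich proteoglycans are secreted core proteins whose curved leucine-rich repeats bind collagen fibrils and limit their width, and several of them also hold growth factors of the TGF-β family in the matrix. Decorin and biglycan carry chondroitin or dermatan sulfate chains, lumican and fibromodulin carry keratan sulfate, and asporin usually carries none. Versican is a much larger chondroitin sulfate proteoglycan that binds hyaluronan and fills the space between cells. In fat these proteins are made mainly by stromal cells and preadipocytes, and the matrix they form is remodelled while lipid accumulates.

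The labels were first set against markers of the cells. Of 12 adipocyte markers in the table, 7 (ADIPOQ, PLIN1, PLIN4, LEP, DGAT2, PCK1 and CFD) were below 1 FPKM in every library, IMA and SA included. FABP4, also listed as an adipocyte marker, was not found in the table and is missing from the sum that follows. The summed level of the adipocyte markers was 13.4 ± 0.453 FPKM in IMPA, 9.61 ± 0.581 in IMA, 13.8 ± 0.626 in SPA and 13.4 ± 0.928 in SA (mean ± SD, n = 5 per group), led by the transcription factor CEBPA. The sum was thus no higher in the libraries labelled adipocytes than in the preadipocytes of the same depot, and lipid was not analysed here. The 14 skeletal muscle markers in the table summed to between 3288 and 3772 FPKM in IMPA, between 11420.2 and 12154 in IMA, between 7.03 and 23.2 in SPA and between 7.53 and 9.53 in SA. MYLPF, a fast muscle myosin light chain, was the most abundant of them. The highest SPA sum was that of SPA 1, with SPA 2 to 5 at 7.03, 8.40, 7.62 and 7.98 FPKM. The intramuscular cultures thus held transcripts of muscle cells that were nearly absent from the subcutaneous ones, and depot and muscle content cannot be told apart.

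Decorin dominated the group. The 8 genes together reached 1232 ± 157 FPKM in IMPA, 1124 ± 37.4 in IMA, 6780.5 ± 142 in SPA and 5253 ± 222 in SA. As a share of the FPKM of all mRNAs this was 0.318% ± 0.0415 in IMPA, 0.283% ± 0.0101 in IMA, 1.78% ± 0.0287 in SPA and 1.31% ± 0.0276 in SA. No IMPA or IMA library overlapped with a subcutaneous library, and the sum was 5.50 times as high in SPA as in IMPA and 4.67 times as high in SA as in IMA (exact permutation p = 0.00794 for each, the smallest that 5 against 5 libraries can give). SA fell below SPA with no overlap (ratio 0.775, exact permutation p = 0.00794), while IMA and IMPA overlapped (ratio 0.912, exact permutation p = 0.190). Decorin alone supplied 53.5% ± 1.69 of the sum in IMPA, 47.5% ± 3.59 in IMA, 80.2% ± 0.372 in SPA and 78.4% ± 0.424 in SA. The plot of stacked levels shows that most of the gap between the depots was decorin.

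**Figure D1:**
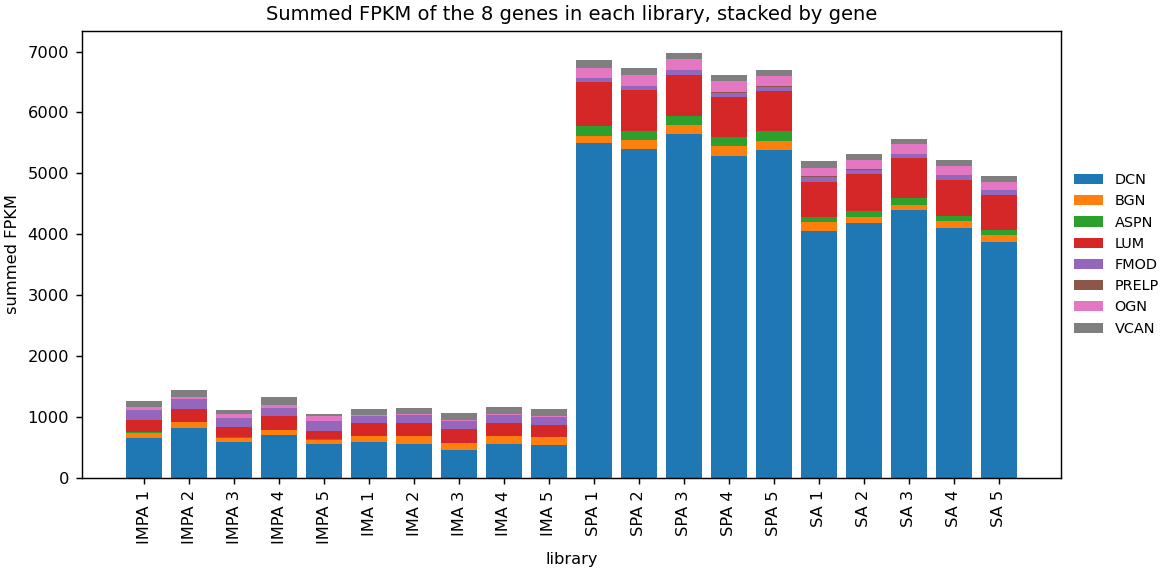
Summed FPKM of the 8 proteoglycan genes in each of the 20 libraries, stacked by gene, on a linear axis from 0. The sums lay between 1050.2 and 1435 FPKM in the 10 intramuscular libraries and between 4957 and 6985 FPKM in the 10 subcutaneous libraries, where most of it was decorin.

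Decorin, which wraps collagen fibrils and binds TGF-β, was read at 656, 809, 587, 702 and 548 FPKM in IMPA 1 to 5 and at 588, 546, 449, 550.3 and 542 FPKM in IMA 1 to 5. In the subcutaneous cells it was read at 5492, 5401, 5643, 5282 and 5386 FPKM in SPA 1 to 5 and at 4053, 4186, 4398, 4094 and 3869 FPKM in SA 1 to 5. Every subcutaneous library was far above every intramuscular library, every SA library was below every SPA library, and IMPA and IMA overlapped. By group mean, decorin ranked 1 of 20587 genes in SPA and 3 in SA, against 99 in IMPA and 128 in IMA. Its mean was 8.24 times as high in SPA as in IMPA and 7.70 times as high in SA as in IMA. On the log2(FPKM + 1) scale used for all tests, IMPA differed from SPA by -3.05 ± 0.0857 (SE; limma adjusted p = 5.60e-12) and IMA from SA by -2.95 ± 0.0656 (adjusted p = 2.25e-14).

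Biglycan, the closest relative of decorin, did not follow it. Its FPKM was 77.5, 98.9, 68.4, 77.8 and 78.0 in IMPA 1 to 5 and 88.2, 139, 119.7, 134 and 122 in IMA 1 to 5. In the subcutaneous groups it was 114, 139, 143, 164 and 149.6 in SPA 1 to 5 and 139, 96.2, 86.9, 117 and 118 in SA 1 to 5. SPA libraries were all above IMPA libraries, whereas IMA and SA lay in the same range. The difference of IMPA from SPA was -0.82 ± 0.102 (limma adjusted p = 1.09e-05), and that of IMA from SA was 0.11 ± 0.131 (adjusted p = 0.443).

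Asporin, which shares their gene structure and can bind TGF-β and collagen, was at 8.54, 6.77, 10.8, 7.03 and 13.1 FPKM in IMPA 1 to 5 and at 4.22, 4.36, 6.30, 4.69 and 4.60 FPKM in IMA 1 to 5. It was at 174, 161, 159, 151 and 159 FPKM in SPA 1 to 5 and at 86.9, 94.7, 106, 94.2 and 85.2 FPKM in SA 1 to 5. None of the 4 groups overlapped with another. The means were 17.4 times as high in SPA as in IMPA and 19.3 times as high in SA as in IMA. On the log2 scale asporin differed between the depots by -4.02 ± 0.140 in preadipocytes (limma adjusted p = 4.51e-11) and by -4.02 ± 0.0862 in adipocytes (adjusted p = 1.45e-14).

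**Figure D2:**
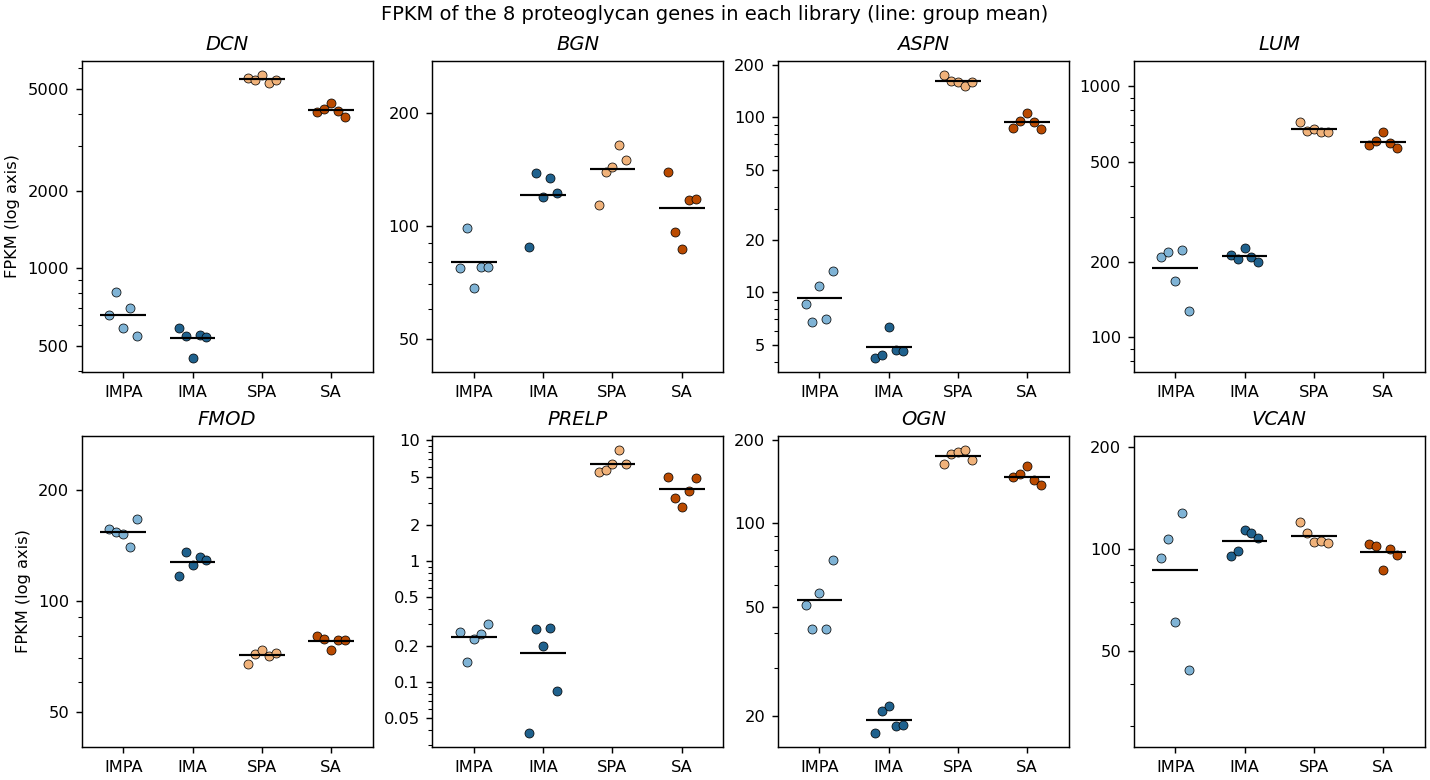
FPKM of each proteoglycan gene in every library on log axes, with 5 points per group and a line at the group mean. DCN, ASPN, LUM, PRELP and OGN stood higher in every subcutaneous library than in any intramuscular one, FMOD stood lower, and BGN and VCAN overlapped between depots. PRELP had to differ, as it passed the filter only through the subcutaneous libraries. Of all genes tested, 42.3% were called higher and 32.9% lower in IMPA than in SPA, and 29.0% and 43.4% in IMA against SA.

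Lumican, a keratan sulfate proteoglycan of collagen-rich stroma, was at 208, 219, 168, 223 and 127 FPKM in IMPA 1 to 5 and at 213, 204, 227, 208 and 199.9 FPKM in IMA 1 to 5. The readings were 720.5, 662, 673, 656 and 659 FPKM in SPA 1 to 5 and 584, 604, 656, 591 and 568 FPKM in SA 1 to 5. The depots did not overlap, IMPA 5 was the lowest library of all, and SA 3 reached the level of the lower SPA libraries. The mean was 3.57 times as high in SPA as in IMPA (log2 difference of IMPA from SPA -1.86 ± 0.129, limma adjusted p = 3.95e-08) and 2.85 times as high in SA as in IMA (-1.51 ± 0.0483, adjusted p = 1.36e-12).

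Fibromodulin, which competes with lumican for a site on collagen fibrils, went the other way. It was at 156, 153, 152, 139.8 and 167 FPKM in IMPA 1 to 5 and at 117, 135, 125, 132 and 129 FPKM in IMA 1 to 5, against 67.1, 71.8, 73.3, 70.8 and 72.1 FPKM in SPA 1 to 5 and 80.2, 78.9, 73.3, 78.1 and 78.1 FPKM in SA 1 to 5. All 10 intramuscular libraries were above all 10 subcutaneous libraries. IMPA exceeded SPA by 1.10 ± 0.0446 on the log2 scale (limma adjusted p = 1.90e-10) and IMA exceeded SA by 0.71 ± 0.0447 (adjusted p = 3.59e-09).

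PRELP, a basic protein that links matrix collagen to heparan sulfate at basement membranes, was the weakest of the 8 genes. Its values were between 0.146 and 0.300 FPKM in IMPA, between 0.0379 and 0.282 in IMA, between 5.43 and 8.26 in SPA and between 2.79 and 4.95 in SA. It passed the minimum mean of 1 FPKM for testing only through the subcutaneous libraries and so had to differ between the depots. The differences were -2.57 ± 0.0875 in preadipocytes (limma adjusted p = 3.57e-11) and -2.06 ± 0.118 in adipocytes (adjusted p = 1.19e-09) on the log2(FPKM + 1) scale, which understates the ratio of such low values.

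Osteoglycin, also called mimecan, which takes part in collagen fibril assembly, was at 50.8, 41.4, 56.0, 41.6 and 73.4 FPKM in IMPA 1 to 5 and at 17.4, 20.9, 21.8, 18.5 and 18.7 FPKM in IMA 1 to 5. In SPA 1 to 5 it was at 164, 179, 182, 184 and 169 FPKM, and in SA 1 to 5 at 147, 151, 161, 143 and 137 FPKM. No group overlapped with another, and the order was SPA, SA, IMPA, IMA. The mean was 3.34 times as high in SPA as in IMPA and 7.58 times as high in SA as in IMA, with log2 differences of -1.75 ± 0.128 (limma adjusted p = 6.62e-08) and -2.86 ± 0.0615 (adjusted p = 1.49e-14).

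Versican differed most among the IMPA libraries, at 94.0, 107, 61.0, 128 and 43.9 FPKM in IMPA 1 to 5. The other groups were tighter, at 95.6, 99.1, 114, 112 and 108 FPKM in IMA 1 to 5, at 121, 112, 105, 106 and 105 FPKM in SPA 1 to 5 and at 104, 102, 87.0, 100.02 and 96.5 FPKM in SA 1 to 5. The depots overlapped at both stages. Neither the difference of IMPA from SPA (-0.43 ± 0.231, limma adjusted p = 0.109) nor that of IMA from SA (0.11 ± 0.0601, adjusted p = 0.117) passed the threshold. The first was -0.21 without IMPA 5 (adjusted p = 0.242), and reached an adjusted p of 0.0227 without IMPA 4 (-0.59) and 0.0371 with all 4 groups in the fit. The second reached 0.0438 without IMA 1 and 0.0107 after upper-quartile scaling (0.17), and was called the other way in an ordinary linear model with a library-size covariate (-0.21, adjusted p = 0.0380).

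Counted over the genes, 6 of 8 were lower and 1 of 8 (FMOD) was higher in IMPA than in SPA at an adjusted p under 0.05, where 32.9% of all 11432 genes tested were lower and 42.3% higher. That split was 4831 higher and 3757 lower, and 4046 and 4665 after quantile normalization. In an ordinary linear model with a library-size covariate, which did not overlap between IMPA and SPA, 1 of 8 was called. In IMA against SA, 5 of 8 were lower and 1 of 8 (FMOD) higher, where 43.4% of all genes were lower and 29.0% higher. The median log2 difference of the 8 genes was -1.80 in preadipocytes and -1.78 in adipocytes, beside 0.05 and -0.09 over all genes. PRELP could hardly be tested without being called lower, and without it 5 of 7 genes were lower in preadipocytes and 4 of 7 in adipocytes, with medians of -1.75 and -1.51. These comparisons do not share libraries with each other but share them with the comparisons of stage. In bulk RNA, fewer cells that express a gene and less RNA of it per cell cannot be told apart. The skeletal muscle markers moved with these differences, with 14 of 14 higher in IMPA than in SPA and in IMA than in SA, but 12 of 14 averaged under 1 FPKM in both subcutaneous groups, were tested only through the intramuscular libraries and so had to differ. So did most stromal markers move, with 7 of 10 lower and 3 higher in each of these comparisons and a sum, led by VIM, of 1511 FPKM in IMPA, 1656 in IMA, 4406 in SPA and 2736 in SA. Proliferation markers were higher in IMPA than in SPA (9 of 9) and lower in IMA than in SA (9 of 9). Their part in the differences was not tested.

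**Figure D3:**
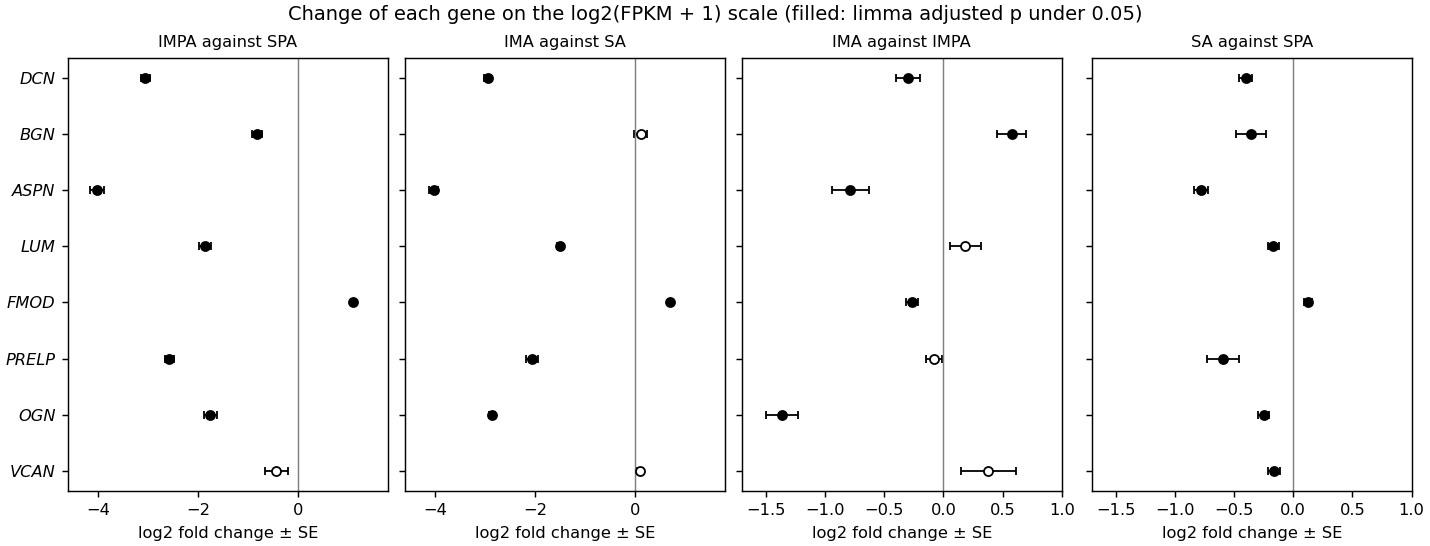
Log2 fold change ± SE of each gene in the comparisons of depot (IMPA against SPA, IMA against SA) and of stage (IMA against IMPA, SA against SPA), on axes of different width, with filled points at a limma adjusted p under 0.05. The depot differences of DCN, ASPN and PRELP were beyond -2 at both stages, while no stage difference other than that of OGN in the intramuscular cells (-1.36) was beyond -1.

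On induction of the intramuscular cells, 4 of 8 genes fell (DCN, FMOD, ASPN and OGN) and 1 of 8 rose (BGN), where 40.2% of all genes tested fell and 19.9% rose. Osteoglycin fell the most, from 52.6 ± 13.2 to 19.5 ± 1.82 FPKM with no overlap (-1.36 ± 0.135, limma adjusted p = 5.68e-06). Asporin went from 9.25 ± 2.70 to 4.83 ± 0.838 FPKM (-0.79 ± 0.157, adjusted p = 0.00104), and fibromodulin from 154 ± 9.65 to 127 ± 6.99 FPKM (-0.27 ± 0.0507, adjusted p = 0.000772), again without overlap. Biglycan rose from 80.1 ± 11.3 to 121 ± 19.8 FPKM, with 4 of 5 IMA libraries above every IMPA library (0.58 ± 0.120, adjusted p = 0.00138). For decorin the change from 660.5 ± 103 to 535 ± 51.4 FPKM passed the threshold (-0.30 ± 0.1003, adjusted p = 0.0233), but not without IMPA 4 (adjusted p = 0.0523) or IMA 3 (0.0557), without the filter on low values (0.0642), or with only the most abundant transcript (-0.19, 0.225). Lumican (0.18 ± 0.131, adjusted p = 0.242; 0.05 without IMPA 5), PRELP (-0.08 ± 0.0689, 0.350) and versican (0.38 ± 0.233, 0.181) did not pass, although versican, at 0.16 without IMPA 5 (adjusted p = 0.413), reached an adjusted p of 0.0462 without IMPA 4 (0.54) and was called at 1.08 (adjusted p = 0.0241) when only the most abundant transcript of each gene was read. The skeletal muscle markers moved with this comparison, with 12 of 14 higher and 1 lower in IMA than in IMPA (median 1.73), and their part in the changes was not tested.

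In the subcutaneous cells, 7 of 8 genes fell on induction and 1 of 8 (FMOD) rose, where 26.0% of all genes fell and 26.1% rose. Asporin fell most, from 161 ± 8.17 to 93.5 ± 8.35 FPKM (-0.78 ± 0.0577, limma adjusted p = 2.84e-07), followed by PRELP, from 6.41 ± 1.11 to 3.94 ± 0.942 FPKM (-0.59 ± 0.133, adjusted p = 0.00264), and decorin, from 5441 ± 135 to 4120.3 ± 193 FPKM (-0.40 ± 0.0516, adjusted p = 3.93e-05). The changes of osteoglycin (-0.25 ± 0.0465, adjusted p = 0.000754), lumican (-0.17 ± 0.0447, 0.00782) and versican (-0.16 ± 0.0541, 0.0253) were small beside these, and with all 4 groups in the fit they lost the call (0.0567, 0.183 and 0.476). Fibromodulin rose from 71.0 ± 2.35 to 77.7 ± 2.64 FPKM (0.13 ± 0.0339, adjusted p = 0.00733), but its adjusted p was 0.171 after quantile normalization and 0.249 after scaling to a common sum. Biglycan fell from 142 ± 18.4 to 111 ± 20.5 FPKM with overlap (-0.36 ± 0.123, adjusted p = 0.0290), and lost the call without SPA 3 (0.0542), SPA 4 (0.0717), SPA 5 (0.0618), SA 2 (0.0695) or SA 3 (0.0646), without the filter (0.0873) and with only the most abundant transcripts (0.0624). Versican lost it without SPA 1 (0.0567) or SPA 2 (0.0546), without SPA 1 and SA 5 together (0.0925), without the filter (0.0613) and with the most abundant transcript (-0.07, 0.868). Over all genes the split of calls was 2982 higher and 2975 lower, and after scaling to a common sum it was 2327 higher and 4052 lower. Proliferation markers moved with this comparison: 9 of 9 rose in SA against SPA, from a summed 65.0 to 289.6 FPKM, while in the intramuscular cells 6 of 9 fell, from 155 to 121 FPKM. Stromal markers moved with it as well, with 9 of 10 lower and 1 higher in SA than in SPA (median -0.53). Their part in the changes was not tested.

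The change on induction was compared between the depots in a single fit of all 20 libraries, as the intramuscular change minus the subcutaneous change. It was positive for 3 of 8 genes (LUM, BGN and PRELP), where 20.7% of all genes were positive, and negative for 2 of 8 (FMOD and OGN), where 34.6% were negative. Biglycan rose in muscle-derived cells and fell in the subcutaneous ones (difference 0.93 ± 0.183, limma adjusted p = 0.000199), and fibromodulin did the reverse (-0.39 ± 0.0628, adjusted p = 1.97e-05). The subcutaneous fall of biglycan and rise of fibromodulin lost their calls under several settings, as given above. Osteoglycin fell in both depots, by more in the intramuscular cells (-1.11 ± 0.152, adjusted p = 2.58e-06). The difference for PRELP (0.52 ± 0.157, adjusted p = 0.00840) rests on values under 1 FPKM in the muscle-derived cells and was 0.32 with an adjusted p of 0.435 at a pseudocount of 0.1. That for lumican (0.35 ± 0.146, adjusted p = 0.0469) passed only narrowly, was 0.22 (0.0466) without IMPA 5 and was lost in 14 of 20 fits without a single library, at adjusted p values up to 0.0844, and among others without the filter (0.0838) and after quantile normalization (0.0614). With SPA 1 and SA 5 left out together it was 0.31 (limma adjusted p = 0.113). The differences for decorin (0.11 ± 0.114, adjusted p = 0.444) and asporin (-0.01 ± 0.177, 0.981) did not pass the threshold, and that of versican (0.54 ± 0.256, 0.0795) was 0.32 without IMPA 5 (0.133) but reached 0.0385 without IMPA 2, 0.0116 without IMPA 4 and 0.0431 with the most abundant transcript (1.14). Over all genes 2368 differences were positive and 3951 negative, and after quantile normalization 3027 and 3221. Markers moved with this comparison too: 11 of 14 skeletal muscle markers were positive and 1 negative (median 1.88), and 9 of 9 proliferation markers were negative (median -2.12). Among 10 stromal markers, 6 were positive and 2 negative (median 0.46). The part of these markers in the differences was not tested.

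Transcripts of the same gene did not always keep their proportions. Decorin has 2 transcripts in the table, the RefSeq transcript NM_001285555.1 and the predicted XM_005679813.3. The former held 38.3, 39.1, 39.8, 42.2 and 37.0% of the decorin FPKM in IMPA 1 to 5 and 43.0, 40.0, 43.7, 39.8 and 45.0% in IMA 1 to 5, against 70.5, 72.1, 69.8, 71.0 and 70.7% in SPA 1 to 5 and 70.9, 70.6, 69.0, 69.9 and 71.9% in SA 1 to 5. The subcutaneous libraries were all near the same high share and the intramuscular ones all well below it. Its mean share differed by -31.5 percentage points in IMPA against SPA and by -28.2 points in IMA against SA (exact permutation p = 0.00794 for each, the smallest possible). In all 7 transcripts were compared in 4 pairs of groups, 28 tests without adjustment, but the 2 transcripts of DCN and of LUM mirror each other and those of VCAN nearly so. Between SA and SPA the share differed by -0.331 points (exact permutation p = 0.611), and between IMA and IMPA by 3.01 points (exact permutation p = 0.0476), which passed 0.05 no longer in 7 of 10 tests without a single library, at exact p values up to 0.119.

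Lumican was read mostly from XM_005679812.3, which held 86.0% ± 3.18 in IMPA, 89.9% ± 0.196 in IMA, 95.7% ± 0.162 in SPA and 94.6% ± 0.805 in SA. The share was lower in IMPA than in SPA by -9.69 points and in IMA than in SA by -4.71 points (exact permutation p = 0.00794 for each), while the second lumican transcript stayed between 20.1 and 39.8 FPKM in every library. Between stages it differed by 3.84 points in IMA against IMPA (exact permutation p = 0.0476) and by -1.13 points in SA against SPA (exact permutation p = 0.0159), and both passed 0.05 no longer without some single libraries, at exact p values up to 0.0794 and 0.0556. The main osteoglycin transcript XM_013966068.2 held 96.9% ± 3.05 in IMA and 99.6% ± 0.150 in SA (-2.72 points, exact permutation p = 0.00794), and the difference was -1.38 points without IMA 1. Versican was divided almost wholly between XM_018050052.1 and XM_005683395.3. The former held 33.6, 60.6, 37.7, 38.6 and 32.5% in IMPA 1 to 5 and 70.0, 66.4, 60.4, 65.5 and 64.4% in IMA 1 to 5. In SPA 1 to 5 it held 71.2, 70.2, 38.9, 41.2 and 71.8%, and in SA 1 to 5 76.2, 50.5, 51.9, 76.2 and 52.8%. IMA libraries lay together at a high share, IMPA libraries except IMPA 2 lay low, and the subcutaneous libraries of a group fell into separate levels that their labels do not distinguish. IMA exceeded IMPA by 24.7 points (exact permutation p = 0.0159), and SA differed from SPA by 2.87 points (exact permutation p = 0.865). How reads shared by transcripts of a gene were divided between them was decided in the authors' estimation and was not tested.

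**Figure D4:**
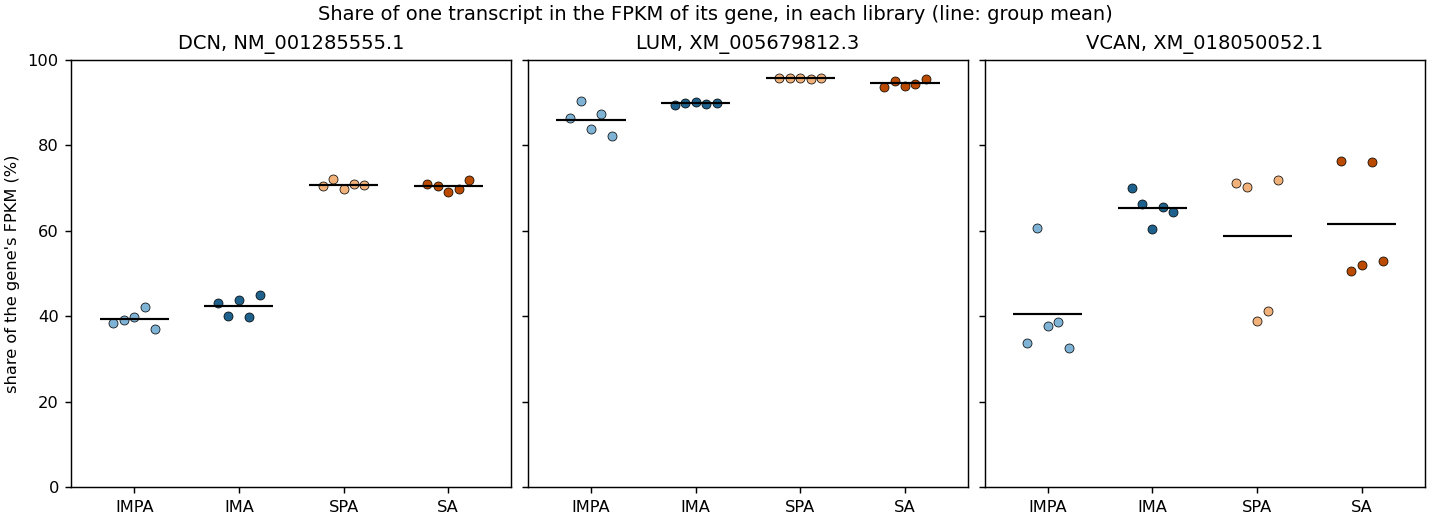
Share of a named transcript in the FPKM of its gene in each library, in percent, with 5 points per group and a line at the group mean. The decorin transcript lay between 37.0 and 45.0% in the intramuscular libraries and between 69.0 and 72.1% in the subcutaneous ones, while the versican transcript scattered from 32.5 to 76.2%.

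Several of these genes are neighbours. In the RefSeq gene order of the goat assembly ARS1.2, used here for order only, EPYC, KERA, LUM, DCN and BTG1 follow each other, as do CENPP, OGN, OMD, ASPN and ECM2, and BTG2, FMOD, PRELP and OPTC. Of the related proteoglycans in these runs, KERA and EPYC beside lumican and OPTC beside PRELP stayed under 1 FPKM in every library, and OMD averaged 0.497, 0.241, 1.04 and 1.95 FPKM in IMPA, IMA, SPA and SA. ECM2, a leucine-rich matrix protein next to asporin, averaged 29.4, 7.70, 85.2 and 50.8 FPKM in the same groups, so that OGN, ASPN and ECM2 had the order SPA, SA, IMPA, IMA. By group mean, PRELP and DCN, which lie in other runs, had this order too. Of further neighbours, BTG1, an antiproliferative protein, was higher in IMPA than in SPA (0.63 ± 0.0501, limma adjusted p = 1.50e-07), and CENPP, a centromere protein, was higher in SA than in SPA (1.58 ± 0.0790, adjusted p = 8.30e-09). CENPP fell in IMA against IMPA (-0.55 ± 0.0994, limma adjusted p = 0.000502), and was higher in IMPA than in SPA (0.64) and lower in IMA than in SA (-1.49). BTG2, a relative of BTG1 next to fibromodulin, was lower in IMPA than in SPA (-0.26 ± 0.0616, limma adjusted p = 0.00208) and in IMA than in SA (-0.42 ± 0.0570, adjusted p = 1.19e-05). FMOD and PRELP adjoin each other and had opposite depot differences. VCAN lay between HAPLN1, which stayed under 1 FPKM, and the DNA repair gene XRCC4, at 9.66 to 11.2 FPKM by group mean.

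**Figure D5:**
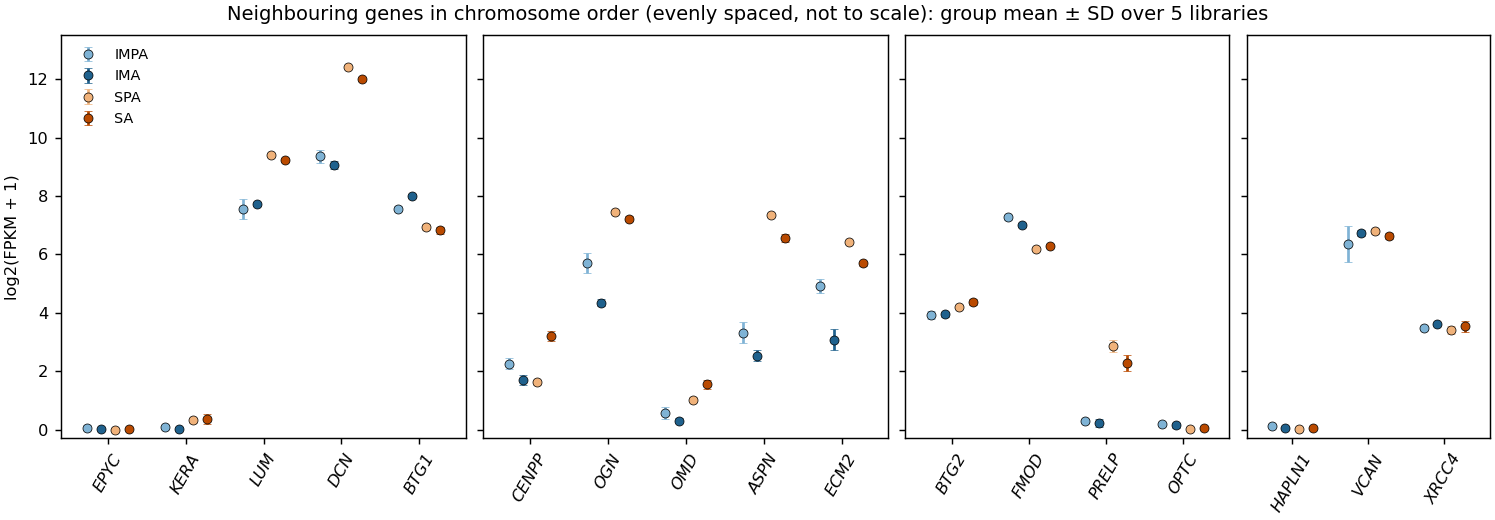
Levels of neighbouring genes in RefSeq order as log2(FPKM + 1), mean ± SD over 5 libraries per group, evenly spaced and not to scale. LUM with DCN and OGN with ASPN and ECM2 were higher in the subcutaneous groups, while FMOD was lower beside a higher PRELP.

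Other genes of proteoglycan biology were read from lists by function, whose counts stand beside these shares of all genes: 42.3% higher and 32.9% lower in IMPA than in SPA, 29.0% and 43.4% in IMA against SA, 19.9% and 40.2% in IMA against IMPA, and 26.1% and 26.0% in SA against SPA. Among the other small leucine-rich proteoglycans listed, only 2 of 9 in the table passed the minimum, ECM2 and TSKU. OMD, given above, was not in this list and averaged 0.931 FPKM, under the minimum. Both ECM2 and TSKU were lower in IMPA than in SPA (-1.52 and -0.62) and in SA than in SPA (-0.73 and -0.28). In IMA against IMPA, ECM2 fell (-1.83) and TSKU rose (0.25). In IMA against SA, ECM2 was lower (-2.61) and TSKU was not called. Of the hyalectans and link proteins, the relatives and partners of versican, ACAN, NCAN, BCAN, HAPLN1, HAPLN2 and HAPLN4 were under 1 FPKM in every library and HAPLN3 averaged between 0.824 and 1.46 FPKM by group. Versican was thus the main hyalectan transcript in all groups. Of 15 basement membrane and cell surface proteoglycans, 10 were higher and 3 lower in IMPA than in SPA (median 0.51), and 9 higher and 4 lower in IMA than in SA (median 0.48). These counts include GPC3, which averaged 0.267 FPKM in SPA and 0.303 in SA. It was tested only through the intramuscular libraries and so had to be higher in them. TGFBR3, the betaglycan co-receptor of TGF-β, was lower in IMPA than in SPA (10.3 against 69.3 FPKM, -2.70), while SPOCK1, a testican, and SDC2, a syndecan, were higher (2.36 and 2.19). On induction SPOCK1 fell in the intramuscular cells (-1.18) and rose in the subcutaneous ones (1.71), and GPC3, a glypican, rose in the former (1.43).

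The enzymes that build the sugar chains did not move as a block. For the linker and chondroitin or dermatan sulfate chains, 9 of 25 genes were higher and 10 lower in IMPA than in SPA (median 0.01), 5 higher and 13 lower in IMA than in SA (median -0.18), 5 higher and 10 lower in IMA than in IMPA (median -0.07), and 8 higher and 5 lower in SA than in SPA (median 0.06). DSE, the epimerase that turns chondroitin into dermatan sulfate, was at 22.5, 15.7, 76.3 and 65.0 FPKM in IMPA, IMA, SPA and SA, and PAPSS2, which makes the sulfate donor, at 32.2, 48.7, 117 and 155 FPKM. Both were lower in IMPA than in SPA (-1.72 and -1.85), as was UGDH in IMA against SA (-1.19), whereas the sulfotransferase CHST15 was higher in IMPA (2.42). For keratan sulfate, the chain of lumican and fibromodulin, 4 of 6 genes were higher and 2 lower in IMPA than in SPA (median 0.25), and 4 of 6 fell in IMA against IMPA (median -0.20). B4GALT2, the most abundant, was lower in IMPA than in SPA (-0.10), in IMA than in SA (-0.44) and in IMA than in IMPA (-0.21), and higher in SA than in SPA (0.13). In the remaining comparisons of this list, 2 were higher and 3 lower in IMA than in SA, and 3 higher and 1 lower in SA than in SPA.

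Versican binds hyaluronan, whose main synthase HAS2 was at 27.7, 71.2, 19.98 and 10.1 FPKM in IMPA, IMA, SPA and SA, while CEMIP, which serves in hyaluronan degradation, was at 114, 47.0, 571.5 and 371 FPKM. HAS2 rose on induction in the intramuscular cells (1.31 ± 0.125, limma adjusted p = 4.05e-06) and fell in the subcutaneous ones (-0.91 ± 0.0713, adjusted p = 4.67e-07), with an interaction of 2.23. CEMIP fell in both (-1.26 and -0.62) and was lower in IMPA than in SPA (-2.32). Over the list, 3 of 7 genes were higher and 3 lower in IMPA than in SPA (median 0.02), 3 higher and 4 lower in IMA than in SA (-0.32), 2 higher and 1 lower in IMA than in IMPA (0.12), and 1 higher and 5 lower in SA than in SPA (-0.27).

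Proteases that cut versican and process collagen included genes that differed widely between the depots. ADAMTS1 and ADAMTS5, which cleave versican, were at 43.9 and 44.8 FPKM in IMPA and at 0.585 and 9.36 FPKM in SPA (4.83 and 2.12), and ADAMTS15 was at 0.665 in IMPA and 14.9 FPKM in SPA (-3.25). ADAMTS1 and TLL2 averaged under 1 FPKM in both subcutaneous groups, and ADAMTS15 and MMP3 in both intramuscular groups, so that they were tested through a single depot, had to differ between depots and are still part of the counts that follow. ADAMTS1 and ADAMTS5 fell on induction of the intramuscular cells (-1.41 and -0.84). MMP2, the most abundant of the list, was at 250.0, 269, 1039 and 951 FPKM in IMPA, IMA, SPA and SA. In all, 4 of 12 were higher and 8 lower in IMPA than in SPA (median -0.49), 3 higher and 7 lower in IMA than in SA (-0.26), 1 higher and 7 lower in IMA than in IMPA (-0.22), and 4 in each direction in SA against SPA (0.03).

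Collagens on which the small proteoglycans sit differed between the depots gene by gene. COL3A1, the most abundant, was at 4444, 5242, 4303 and 4975 FPKM in IMPA, IMA, SPA and SA, and its difference of IMPA from SPA was 0.03 (limma adjusted p = 0.831). Of 10 tested collagens, 4 were higher and 2 lower in IMPA than in SPA (median -0.03), 3 higher and 2 lower in IMA than in SA (0.12), 3 in each direction in IMA against IMPA (0.08), and 4 higher and 1 lower in SA than in SPA (0.14). COL11A1, a minor fibrillar chain, was at 494 FPKM in IMPA and 53.3 in SPA (3.19), higher in IMA than in SA (1.43), and rose in SA against SPA (1.45). COL5A3, another minor chain, was also higher in IMPA than in SPA (1.66) and in IMA than in SA (2.83).

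Partners that decorin, biglycan or versican bind were divided: 8 of 17 were higher and 9 lower in IMPA than in SPA (median -0.22), 9 higher and 7 lower in IMA than in SA (0.19), 5 in each direction in IMA against IMPA (-0.04), and 4 higher and 8 lower in SA than in SPA (-0.15). Tenascin C (TNC), which binds versican, was at 36.1, 80.8, 0.953 and 2.58 FPKM in IMPA, IMA, SPA and SA, and MET, a receptor that decorin binds, at 20.6, 12.0, 2.23 and 2.18 FPKM. FBLN1, a fibulin that binds versican, was lower in IMA than in SA (-2.48). TGFB3 rose on induction in the intramuscular cells (1.49, from 9.41 to 28.1 FPKM) and fell in the subcutaneous cells (-0.98, from 22.7 to 11.01 FPKM), and TGFB2 was at 11.4 FPKM in IMPA and 0.220 in SPA (3.33), tested only through the intramuscular libraries.

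The genes nearest to each proteoglycan gene were those with the smallest root mean square difference in log2(FPKM + 1), centred per gene, over the 20 libraries, a description that reflects mostly the 4 group means. They were C2, RGL1 and ASAP3 for decorin (0.145, 0.190 and 0.193), PRR13, OCEL1 and ZNF503 for biglycan (0.143, 0.159 and 0.159), C1QTNF1, LOC102173932 and WIF1 for asporin (0.306, 0.361 and 0.373), and ADD3, RIPK3 and SLC44A5 for lumican (0.130, 0.140 and 0.146). Fibromodulin was closest to CDK14, AJUBA and the smooth muscle actin ACTG2 (0.0799, 0.0906 and 0.0967), and PRELP to SDK1, PRRX1 and THBS2 (0.175, 0.184 and 0.186). Osteoglycin was closest to CEMIP, ECM2 and TMEM26 (0.265, 0.302 and 0.341), and versican to PRDX6, IGSF3 and SEMA6D (0.161, 0.178 and 0.216). No gene of the group was among the 3 nearest of another. CEMIP and ECM2, named above for hyaluronan and as a chromosomal neighbour, were thus both nearest to osteoglycin.

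Markers of other cells were read beside these results. Smooth muscle and pericyte markers summed to 900.2 FPKM in IMPA, 737 in IMA, 265 in SPA and 307 in SA, led by TAGLN, with 4 of 5 tested higher and 1 lower in IMPA than in SPA, and MYH11 and RGS5 under 1 FPKM in every library. Among these 5, MCAM was tested only through the intramuscular libraries and so had to be higher in them. Of the stromal markers, 3 of 10 were higher and 7 lower in IMPA than in SPA, VIM was the most abundant, PDGFRA was at 148, 107, 572 and 327 FPKM in IMPA, IMA, SPA and SA, and DLK1, CD34 and PI16 were under 1 FPKM in every library. Endothelial markers summed to at most 5.68 FPKM by group mean, with PECAM1, CDH5, VWF, KDR, TEK and CLDN5 under 1 FPKM in every library and ERG the most abundant. Leukocyte markers summed to at most 16.9 FPKM by group mean, led by CD14, with PTPRC, CSF1R, AIF1, CD3E and CD79A under 1 FPKM, and tendon and cartilage markers to at most 11.04 FPKM, with SCX, TNMD, COL2A1, MATN3 and COL9A1 under 1 FPKM. Of 10 housekeeping genes, 4 were higher and 4 lower in IMPA than in SPA (median 0.02), 2 higher and 5 lower in IMA than in SA (-0.20), 1 higher and 6 lower in IMA than in IMPA (-0.22), and 3 higher and 5 lower in SA than in SPA (-0.08). Libraries of a group correlated with each other at a mean r of at least 0.989 over the genes tested, IMPA 5 being the lowest. IMPA 5 also had the lowest DCN, LUM and VCAN and the highest FMOD, OGN, ASPN and PRELP of its group.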

How the data were processed

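The authors aligned the reads to the goat assembly ARS1 with HISAT2 2.0.4, assembled transcripts with Scripture and Cufflinks, computed FPKM with StringTie 1.3.1 and deposited it per transcript; the deposited FPKM values were used here as given. Transcripts of a gene symbol were summed. The 11432 genes averaging 1.0 FPKM or more across all 20 libraries entered the tests, made on log2(FPKM + 1) with limma 3.58.1 in R 4.3.3, with a variance trend and Benjamini-Hochberg adjustment, each pair of groups in a fit of its own and the interaction in a fit of all libraries. A gene was called at an adjusted p under 0.05. For sums and transcript shares, all 252 ways to divide 10 libraries were used in a 2-sided exact permutation test. These steps ran in Python 3.11.15 (pandas 2.3.3, scipy 1.17.1, numpy 2.4.6), and matplotlib 3.10.9 drew the plots. The limma script was tested on simulated data. Named from each list were up to 3 called genes with the largest change per comparison and the most abundant gene. Chromosomal neighbours were chosen by position only. The members and lists were chosen with earlier results of these data known. Alternatives covered the pseudocount, filter, scaling, variance model, covariate, samples in the fit, block, transcript choice, adjustment and left-out libraries. Libraries were left out singly, and SPA 1 and SA 5 also together. The lncRNA tables were used only in a single alternative, for the adjustment. The deposited tables hold no read counts, and the read totals that the authors list per library were not analysed here. The authors also list a higher mapped share and a higher GC content for every IMPA library than for any other library. The part of this in the comparisons with IMPA was not tested.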

Additional observations from a re-analysis of the deposited data

Results flagged for a closer look

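Of 64 groups of 5 values examined, 7 held a library far from the others by Dixon's test, where chance gives about 3.2 (1 in 20). That chance count takes the groups as separate, although shares of transcripts of the same gene can mirror each other. The 2 versican shares of IMPA 2 given below are thus a single observation counted for both transcripts. Lumican in SPA 1 was 720.456 FPKM, against 656 to 673 in the other SPA libraries, and asporin in IMA 3 was 6.29598 FPKM, against 4.22 to 4.69. In IMPA 2 the versican transcripts XM_005683395.3 and XM_018050052.1 held 39.4303% and 60.5697%, against 60.1 to 67.5% and 32.5 to 38.6% in the other IMPA libraries. The osteoglycin transcript XM_013966068.2 held 84.6346% in IMPA 2, 91.5492% in IMA 1 and 99.0764% in SPA 5, against at least 99.3%, 97.7% and 99.7% in the other libraries of the same groups. The cause of these values was not tested.

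The change on induction differed between the depots, by the interaction term, for LUM (0.35), BGN (0.93), FMOD (-0.39), OGN (-1.11) and PRELP (0.52). The call for LUM was lost in 14 of 20 fits without a single library, and its value was 0.22 without IMPA 5. That for PRELP was lost at a pseudocount of 0.1 (limma adjusted p = 0.435). Depot and muscle cell content cannot be told apart in these libraries, and the cause was not tested.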

How the results depend on the processing

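Of 504 changes of the 8 genes under other settings, 460 kept direction and side of the threshold, 32 lost the call, 4 gained it and 8 reversed; of 480 without a single library, 443 kept both, 23 lost the call, 5 gained it and 9 reversed. When an unmoderated linear model took in a covariate for library size as Ballgown builds it, which drops the pooling of variance over genes and adds the covariate together, 1 gene of the 8 was called in IMA against IMPA (5 in the limma fit), 1 in IMPA against SPA (7) and 3 in the interaction (5); genes called fell to 1331 (6867), 792 (8588), 5399 in IMA against SA (8277) and 3774 in the interaction (6319). The covariate did not overlap between IMPA (24089.8 to 24310.5) and IMA (23482.9 to 23883.9), IMPA and SPA (23111.7 to 23197.5), or IMA and SA (23090.3 to 23416.3), so that covariate and group cannot be told apart in these comparisons. It did overlap between SA and SPA, where 6 of the 8 genes were called lower and 0 higher in that model (7 and 1 in the limma fit). LUM (adjusted p = 0.101 in that model) and FMOD (0.0745) lost the call there. That model reversed PRELP in IMA against IMPA (0.11), OGN in IMPA against SPA (0.15), BGN (-0.57) and VCAN (-0.21) in IMA against SA and DCN in the interaction (-0.0399). In IMPA against SPA it also moved ASPN from -4.02 to -1.32 (adjusted p = 0.588 in that model), BGN from -0.82 to -2.53 (0.190) and LUM from -1.86 to -3.88 (0.141). With all 4 groups in the fit, 5 of the 8 genes were called in SA against SPA (8), without LUM, OGN and VCAN. The ASPN interaction reversed to 0.0106 after upper-quartile scaling, 0.12 after quantile normalization and 0.0351 after scaling to a common sum, and ranged from -0.10 to 0.12 without a single library. Without a single library the shares of DCN NM_001285555.1 and XM_005679813.3 in SA against SPA ranged from -0.692 to 0.0289 and from -0.0289 to 0.692 points, those of VCAN XM_005683395.3 and XM_018050052.1 from -6.10 to 2.13 and from -2.07 to 6.15, and that of OGN XM_013966068.2 from -0.193 to 0.0206, and from -2.53 to 1.78 in IMA against IMPA. The cause of these reversals was not tested.

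Libraries of different groups share a number, and whether a number marks a goat is not stated. After the group mean of each gene was subtracted, correlations of same-numbered libraries of different groups lay between -0.242 and 0.176. Not every library correlated best with its own number. In IMPA and IMA 4 of 5 did, in IMPA and SPA 2, and in IMA and SPA 2. It was 1 in IMPA and SA, 0 in IMA and SA, and 0 in SPA and SA. With the replicate number as a block, genes called were 6826 against 6867 (IMA against IMPA), 5602 against 5957 (SA against SPA), 8530 against 8588 (IMPA against SPA), 8059 against 8277 (IMA against SA) and 6304 against 6319 (interaction), and no call among the 8 genes changed.

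The limits are these. FPKM is relative, so that a very abundant transcript lowers the values of others, and the split of called genes moved with the scaling. Libraries were cultured cells, few adipocyte markers were present, and the muscle transcripts in the intramuscular groups were not removed. Values rest on RNA alone, and protein, sugar chains and matrix were not analysed here.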
